A study of Mus musculus with 4 samples.

Results

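Antiviral interferon-stimulated genes were followed in tumor cells sorted from MC38 tumors of mice treated with an antibody to PD-1. The set has 32 genes chosen by name, of 53379 gene identifiers in the count files: 4 of the IFIT family, 6 of the OAS family, both Mx genes, 5 receptor or transcription factor genes, 3 of the ISG15 system, 3 sensor genes and 9 other effectors. All 32 were found by symbol, all had reads in every library, and all passed the low-count filter. MC38 is a colon adenocarcinoma line, here carrying GFP. C57BL/6 mice received 50000 cells under the skin and then 100 µg of anti-PD-1, a dose the submitters call sub-optimal, on day 12, day 15, day 18 and day 22. Every library therefore comes from an implanted, treated tumor, and by their labels the groups differ in response: 2 libraries from non-responder and 2 from responder tumors. No untreated tumor, cultured cell or interferon-treated cell was analysed here. The sources used here do not say how response was scored, nor whether the libraries of 1 group stem from different animals. Each p-value thus rests on library-to-library variation that may be purely technical. The comparison asks whether the antiviral interferon program of the malignant cells differed between the labelled outcomes.

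Type I interferons are secreted when cells sense foreign or misplaced nucleic acid. They bind a receptor made of IFNAR1 and IFNAR2, whose kinases activate STAT2, which joins IRF9 in a complex, ISGF3, that binds a DNA element in the promoters of antiviral genes. Many of the same genes also respond to interferon gamma. In tumors the program is known both as a sign of immune attack and, when it lasts, as a companion of immune evasion.

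Per library, depth was 18447041 to 21754063 counts. The responder comparison gave 0 called genes of 13792 tested (background 0% with edgeR's quasi-likelihood test at a Benjamini-Hochberg adjusted p of 0.05), and 856 at an unadjusted p under 0.05. DESeq2 called 62 genes and limma-voom 0. The lowest adjusted p over all genes was 0.111. Of 10 epithelial and colon markers, 9 were below the filter, among them Krt20 with no read, while Cdh1 had 0.435 to 2.47 CPM, so the defining markers of colon epithelium were at or near 0 in cells labelled as tumor cells. The 18 leukocyte markers summed to 78.2 and 200.3 CPM in the non-responder against 26.5 and 82.0 CPM in the responder libraries. In such bulk samples, fewer cells of a type and less RNA per cell cannot be told apart.

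No antiviral gene passed the test between responder and non-responder tumor cells. With edgeR, 0 of the 32 passed over all genes tested, 0 had an unadjusted p under 0.05 (background 6.21%), and the adjusted p ran from 0.796 to 0.998. Of the members, 16 were higher in responders and 16 lower (48.9% of all genes tested were higher). Their median log2 fold change was -0.02, beside -0.01 over all genes tested. DESeq2 and limma-voom also called 0 members. What varied was the level within the non-responder group. Non-responder replicate 1 was the lowest library for 24 of 32 members (background 33.4%, and 31.4% of genes with a mean of at least 10 CPM), and non-responder replicate 2 was at least 2-fold above it for 15 (background 7.95%, and 2.15% of genes at that level, which all 32 members reached). The responder mean was at least 2-fold above non-responder replicate 1 for 10 members (background 5.63%). For 13 members both responder libraries lay between the 2 non-responder libraries (background 21.8%). The groups did not overlap for 5 members (background 36.5%), all of them lower in responders (background 17.8%). CPM is the count scaled to library size with TMM factors. A positive log2 fold change means a higher level in responders. Values of a group are given in the order of replicate 1 and replicate 2 throughout.

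**Figure D1:**
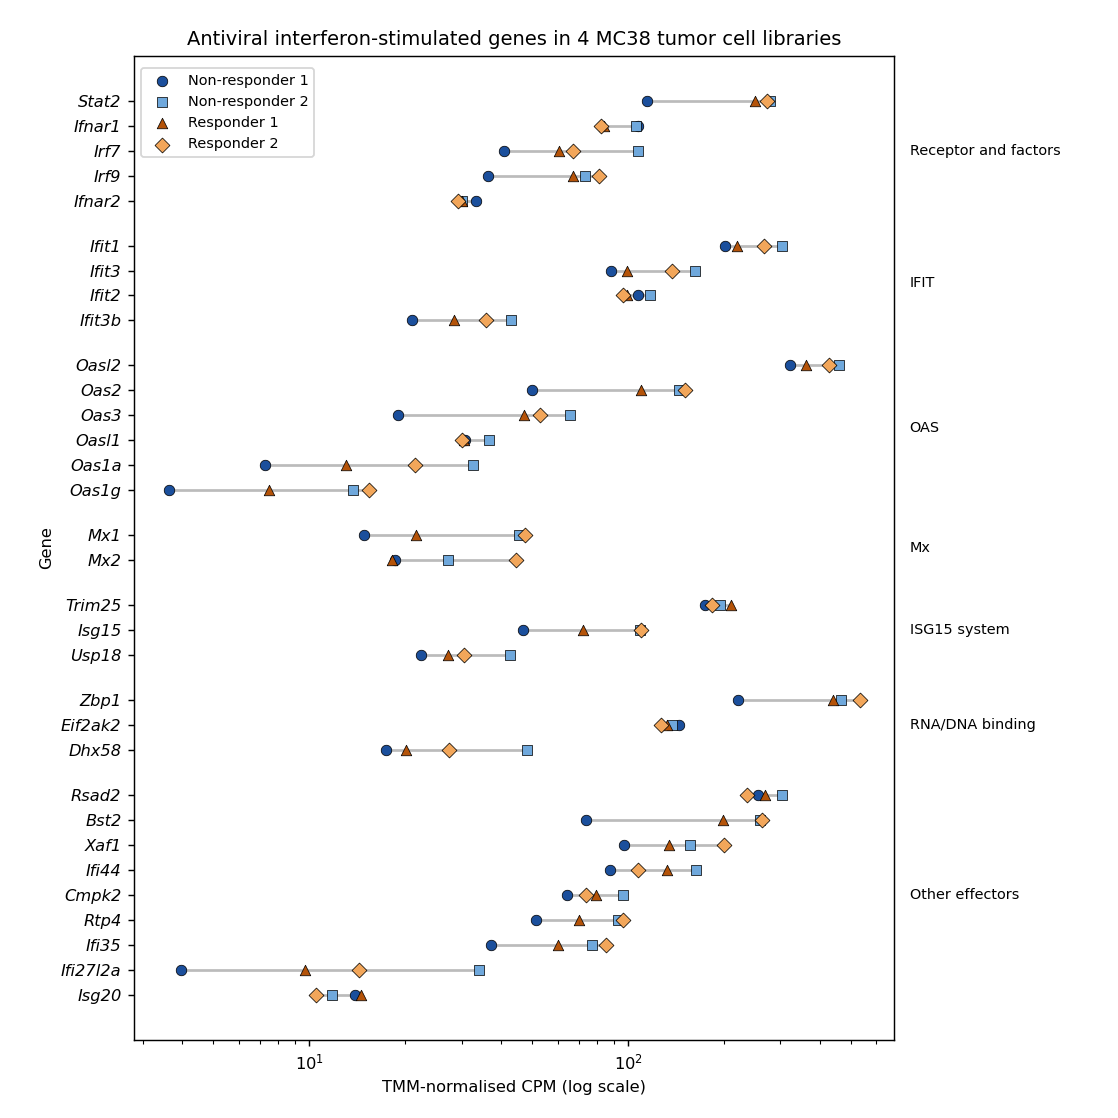
TMM-normalised CPM (log axis) of each of the 32 genes in the 4 libraries, grouped by role; each point is 1 library and the grey line spans the lowest to the highest. Non-responder 1 (dark blue circles) is the leftmost point in 24 of 32 genes, and both responder points lie between the 2 non-responder points in 13.

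Sequences with the core of the element known to be bound by ISGF3 are shown first, because several of these genes share them. Promoters of 300 bases (250 before to 50 after the start, from RefSeq on GRCm38.p6) were found for 24 of the 32 genes. They were searched on both strands for its core, which is GAAA, any 2 bases (NN) and GAAA again, or TTTC, NN and TTTC on the other strand, and matches that overlap each other were counted separately. A match was found for 11 of the 24 genes (45.8%), beside 3.99% of all 27025 genes with a promoter and 3.44% of all 32851 promoters of that length. A gene with several promoters counted as matching if any of them held the core. Below are 60-base stretches, 5′ to 3′ on the strand of the gene, with the matches in capitals.
Ifit1: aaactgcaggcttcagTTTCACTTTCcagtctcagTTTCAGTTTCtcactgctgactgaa
Ifit3: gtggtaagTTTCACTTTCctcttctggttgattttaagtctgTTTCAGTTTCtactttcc
Ifit3b: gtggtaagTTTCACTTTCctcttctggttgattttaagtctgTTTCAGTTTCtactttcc
Oas1a: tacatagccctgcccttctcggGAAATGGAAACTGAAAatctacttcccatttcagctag
Oas1g: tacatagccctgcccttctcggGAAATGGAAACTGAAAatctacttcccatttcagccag
Isg15: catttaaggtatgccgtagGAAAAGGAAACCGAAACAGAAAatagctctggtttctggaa
Bst2: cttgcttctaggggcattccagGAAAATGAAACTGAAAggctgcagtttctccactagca
Stat2: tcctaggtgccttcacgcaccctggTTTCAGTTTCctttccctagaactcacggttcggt
Eif2ak2: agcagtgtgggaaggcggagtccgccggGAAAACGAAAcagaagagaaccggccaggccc

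These 9 are shown because they cover the member pairs with the most shared transcript sequence (Ifit3 with Ifit3b, Oas1a with Oas1g), the genes with the most matches, and genes at both ends of the spread between libraries. Isg15 held 3 overlapping matches, Ifit1, Ifit3, Ifit3b, Oas1a, Oas1g and Bst2 held 2 each, and Stat2 and Eif2ak2 held 1, as did Oas3 and Rsad2, which are not printed. The stretches lie at chr19:34640769-34640828 (Ifit1), chr19:34583365-34583424 (Ifit3), chr19:34607761-34607820 (Ifit3b), chr5:120907508-120907567 (Oas1a, minus strand), chr5:120887594-120887653 (Oas1g, minus strand), chr4:156200856-156200915 (Isg15, minus strand), chr8:71537565-71537624 (Bst2, minus strand), chr10:128270251-128270310 (Stat2) and chr17:78882523-78882582 (Eif2ak2, minus strand). The first match of Isg15 began 78 bases before the start, that of Ifit1 104 bases before it, and that of Oas1a 20 bases before it. In Eif2ak2 the match lay after the start. The highest library was a median of 2.35-fold above the lowest in the 11 genes with a match (range 1.14 to 4.49) and 1.42-fold in the 13 without one (range 1.14 to 2.63). In the 8 genes with no promoter entry it was 2.60-fold, wider than in either. A match is a description of letters, and its absence says only that these letters are not in this window.

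The receptor genes varied little between libraries, and the factors among the members, Stat2, Irf9 and Irf7, varied by 2.22-fold or more. Ifnar1, the low-affinity receptor chain, had 107.6 and 105.8 CPM in the non-responder against 83.8 and 82.2 CPM in the responder libraries, or 106.7 ± 1.27 against 83.0 ± 1.15 CPM (SD, n = 2). Its groups did not overlap and each pair of replicates lay close together. The log2 fold change of -0.36 (SE 0.16) had the smallest p of the 32 members, 0.0556, and an adjusted p of 0.796, so it did not pass. With each library left out in turn it stayed between -0.38 and -0.34. Ifnar2, the high-affinity chain, had 33.3 and 30.2 CPM in the non-responder against 30.1 and 29.3 CPM in the responder libraries. Its groups did not overlap either, by less than 0.1 CPM, and the log2 fold change was -0.09 (SE 0.17). Of its exonic bases, 9.46% are shared on the same strand with Gm21970.

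Stat2, the STAT subunit particular to type I and type III signaling, had 114.8 and 278.1 CPM in the non-responder against 249.5 and 271.6 CPM in the responder libraries. Only non-responder replicate 1 was low and the other libraries lay within a narrow range. Irf9, the DNA-binding partner in ISGF3, had 36.4 and 73.4 CPM in the non-responder against 67.2 and 80.7 CPM in the responder libraries, again with non-responder replicate 1 apart. Irf7, which amplifies interferon production, had 40.8 and 107.3 CPM in the non-responder against 60.5 and 67.0 CPM in the responder libraries, so both responder libraries fell between the non-responder values. The log2 fold changes were 0.41 (SE 0.42), 0.43 (SE 0.34) and -0.22 (SE 0.49), and none passed. That of Irf9 was 0.016 when non-responder replicate 1 was left out and stood at 1.0215 when replicate 2 of that group was left out. Of 8 further kinase and factor genes of the pathway, 0 passed, 4 were higher and 4 lower. Irf1, the most abundant of these per length, had 286.7 and 460.3 CPM in the non-responder against 405.6 and 454.1 CPM in the responder libraries. Irf8, a factor of myeloid and lymphoid cells with the smallest p of the list, had 1.21 and 3.81 CPM in the non-responder against 0.198 and 1.73 CPM in the responder libraries (log2 fold change -1.39, SE 1.03). Its groups overlapped, and its lowest library was responder replicate 1.

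The IFIT family encodes proteins that bind viral RNA lacking the marks of host RNA and block its translation. The 4 genes lie in 1 cluster on chromosome 19 (mm10), which also holds the relatives Ifit1bl1 and Ifit1bl2, from Ifit2 (ENSMUSG00000045932) at 34550694 to 34576419, through Ifit3 (ENSMUSG00000074896) at 34583531 to 34588731 and Ifit3b (ENSMUSG00000062488) at 34607970 to 34613401, to Ifit1 (ENSMUSG00000034459) at 34640871 to 34650009. Ifit1 had 200.9 and 304.1 CPM in the non-responder against 219.6 and 266.1 CPM in the responder libraries. Ifit3 had 88.04 and 162.3 CPM in the non-responder against 99.0 and 136.9 CPM in the responder libraries. Ifit3b had 21.0 and 42.9 CPM in the non-responder against 28.4 and 35.8 CPM in the responder libraries. In these 3 genes the libraries stood in 1 order, with the responder libraries inside the non-responder range, and the log2 fold changes were -0.06 (SE 0.24), -0.09 (SE 0.32) and 0.01 (SE 0.35).

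Ifit2 had 107.2 and 117.0 CPM in the non-responder against 98.8 and 96.0 CPM in the responder libraries, with groups that did not overlap and a spread of 1.22-fold from lowest to highest library. The log2 fold change was -0.20 (SE 0.17, adjusted p = 0.875) and did not pass. No match to the core was found in either of its promoter windows.

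Reads of Ifit3 and Ifit3b cannot be fully told apart. Of all 50-base stretches in Ifit3 transcripts, 51.2% also occur in Ifit3b transcripts, and 44.5% of those of Ifit3b occur in Ifit3 (GENCODE M21). Reads that fit several places were not counted, so both levels are uncertain. The printed promoter stretches of the pair are identical.

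The OAS family makes short oligoadenylates that set off the decay of RNA in infected cells. Of its 6 genes, 4 had non-responder replicate 2 at least 2-fold above replicate 1. Oas2 had 49.8 and 144.0 CPM in the non-responder against 109.6 and 150.9 CPM in the responder libraries. Oas3, which is drawn to long double-stranded RNA, had 18.9 and 65.7 CPM in the non-responder against 47.2 and 52.8 CPM in the responder libraries. In both genes non-responder replicate 1 lay far below every other library. Oas1a had 7.24 and 32.5 CPM in the non-responder against 13.0 and 21.4 CPM in the responder libraries, a spread of 4.49-fold. Oas1g had 3.62 and 13.7 CPM in the non-responder against 7.48 and 15.3 CPM in the responder libraries, and its 75 reads in non-responder replicate 1 were the lowest count of any member in a library. The responder libraries differed from each other too, by 2.05-fold in Oas1g and 1.64-fold in Oas1a. The pair shares sequence: 57.6% of 50-base stretches of Oas1a also occur in Oas1g, and 45.3% of those of Oas1g occur in Oas1a, and the printed promoter stretches carry the same matches. On chromosome 5 Oas2 spans 120730333 to 120749853, Oas3 spans 120753098 to 120777661, Oas1g spans 120876142 to 120887613 and Oas1a spans 120896256 to 120907521, all on the minus strand.

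The OAS-like genes varied less. Oasl2 had 321.7 and 458.4 CPM in the non-responder against 360.0 and 425.4 CPM in the responder libraries, a spread of 1.42-fold. Oasl1, which in mice restrains translation of Irf7, had 30.9 and 36.6 CPM in the non-responder against 30.5 and 30.2 CPM in the responder libraries. With TMM factors its groups did not overlap, by less than 0.5 CPM. The log2 fold changes of the 6 genes ran from -0.21 (Oas1a, SE 0.81) to 0.43 (Oas2, SE 0.56), and none passed. Of the OAS relatives outside the set, Oas1b had 3.82 and 10.8 CPM in the non-responder against 9.32 and 13.0 CPM in the responder libraries. Of 9 tested family relatives, 0 passed, with 5 higher and 4 lower.

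The Mx genes encode dynamin-like GTPases that trap viral nucleoproteins. C57BL/6 mice carry a defective Mx1 allele, so its transcript stands for no working protein. Whether the Mx2 transcript stands for a working protein was not examined. Mx1 had 14.9 and 45.5 CPM in the non-responder against 21.6 and 47.3 CPM in the responder libraries, so the second replicate was at least 2-fold above the first in both groups. Mx2 had 18.5 and 27.2 CPM in the non-responder against 18.2 and 44.3 CPM in the responder libraries, with responder replicate 2 highest. Of 50-base stretches, 3.86% of those of Mx1 occur in Mx2 and 4.38% of those of Mx2 in Mx1. In Mx2 the responder libraries were at once the lowest and the highest of the 4, and in both genes the groups overlapped. The log2 fold changes were 0.19 (SE 0.71) and 0.45 (SE 0.47). Both genes and Oas1g were the only members of the 32 in which responder replicate 2 was at least 2-fold above responder replicate 1 (background 4.42%). The direction of Mx2 rested on that library: without it the log2 fold change was -0.33, and without responder replicate 1 it was 0.95.

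**Figure D2:**
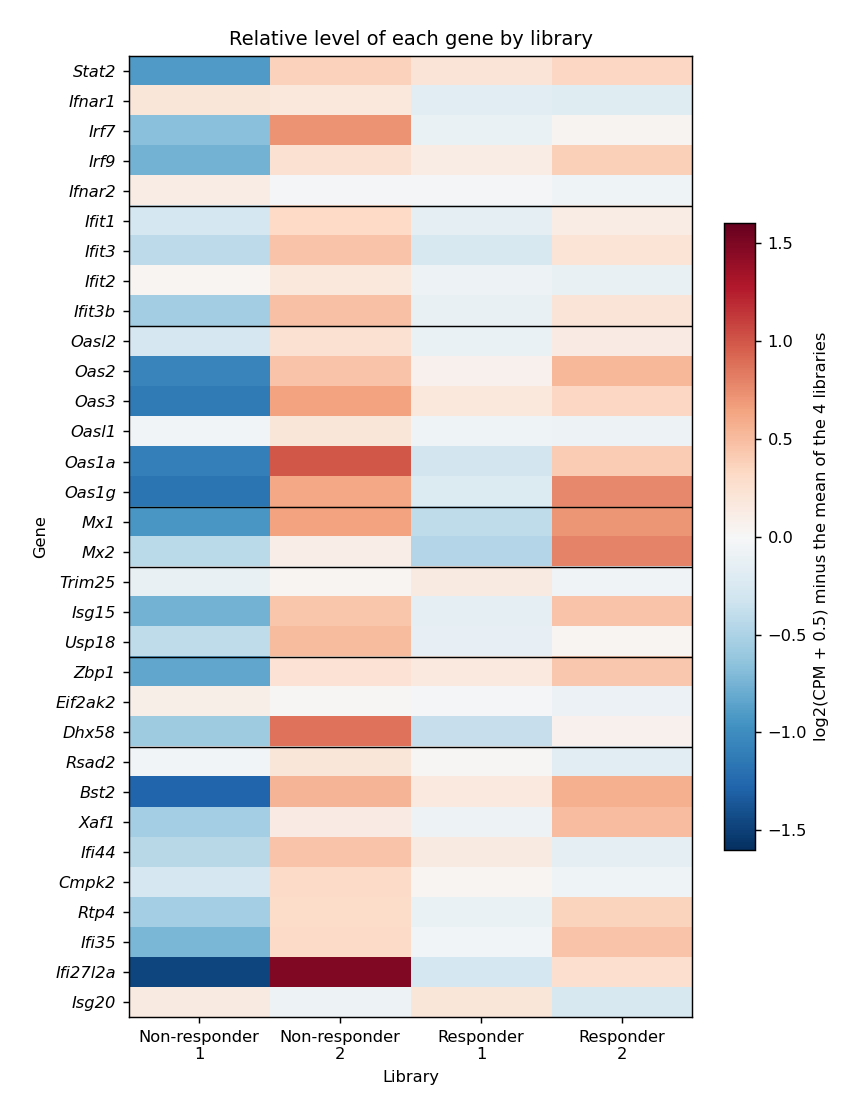
Level of each gene in each library as log2(CPM + 0.5) minus the mean of the 4 libraries, with genes in rows grouped by role (top to bottom: receptor and factors, IFIT, OAS, Mx, ISG15 system, sensors, other effectors). Blue is below and red above the mean of the gene; the non-responder 1 column is blue for most genes and pale blue or pale red for Ifnar1, Ifnar2, Ifit2, Oasl1, Trim25, Eif2ak2, Rsad2 and Isg20.

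ISG15 is a ubiquitin-like protein that is attached to other proteins during the response. Isg15 had 46.7 and 108.4 CPM in the non-responder against 71.9 and 109.6 CPM in the responder libraries, so replicate 2 of both groups stood at nearly 1 level. Usp18, the protease that removes ISG15 and dampens receptor signaling, had 22.3 and 42.4 CPM in the non-responder against 27.3 and 30.5 CPM in the responder libraries. Trim25, a ubiquitin ligase of the RNA sensor RIG-I, had 174.5 and 193.9 CPM in the non-responder against 209.7 and 182.4 CPM in the responder libraries and spread by 1.20-fold. The groups overlapped in all 3 genes, and their log2 fold changes ran from -0.17 (Usp18, SE 0.30) to 0.23 (Isg15, SE 0.47).

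Among sensors, Zbp1, which binds Z-form nucleic acid and can start necroptosis, was abundant, with 221.1 and 463.8 CPM in the non-responder against 438.5 and 532.2 CPM in the responder libraries. Its log2 fold change of 0.50 (SE 0.35, adjusted p = 0.859) was the highest of the 32, yet non-responder replicate 2 lay inside the responder range. Without non-responder replicate 1 it was 0.071. Dhx58, which encodes LGP2, a regulator of RNA sensing, had 17.4 and 48.2 CPM in the non-responder against 20.1 and 27.3 CPM in the responder libraries. Here non-responder replicate 2 stood above the other libraries, and the log2 fold change was -0.47 (SE 0.53). Eif2ak2, which encodes PKR, a kinase that halts translation on double-stranded RNA, had 144.5 and 136.7 CPM in the non-responder against 132.1 and 126.8 CPM in the responder libraries. Its groups did not overlap and its spread of 1.14-fold was among the smallest of the set, and its promoter holds a match.

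The remaining effectors spanned the whole range of spread. Bst2, which encodes tetherin, a membrane protein that holds budding virus on the cell, had 73.6 and 258.4 CPM in the non-responder against 198.7 and 262.7 CPM in the responder libraries. Per length it was the most abundant member, with a mean of 219.7 RPKM (CPM per kilobase of exon), ahead of Zbp1 at 117.3 and Isg15 at 111.3 RPKM. The lowest per length was Oas1g at 4.29 RPKM. Ifi27l2a, a small interferon-induced membrane protein gene, had the widest spread of the set, 8.57-fold, with 3.96 and 33.95 CPM in the non-responder against 9.67 and 14.3 CPM in the responder libraries. Its lowest count was 82 reads, and the log2 fold change was -0.66 (SE 1.13), the lowest of the set. It was -0.079 with the replicate number as a block and -0.015 with limma-voom.

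Rsad2 and Cmpk2 lie next to each other on chromosome 12 and act in one pathway, in which viperin (Rsad2) turns a nucleotide made with the help of CMPK2 into a chain terminator. Rsad2 had 255.7 and 302.7 CPM in the non-responder against 268.2 and 235.6 CPM in the responder libraries. Cmpk2 had 64.1 and 96.3 CPM in the non-responder against 79.5 and 73.6 CPM in the responder libraries. Neither pair of groups was separate. Isg20, an RNA exonuclease gene, had 13.9 and 11.8 CPM in the non-responder against 14.5 and 10.5 CPM in the responder libraries and was not lowest in non-responder replicate 1.

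Ifi35, Rtp4 and Xaf1 shared an order in which non-responder replicate 1 was lowest and responder replicate 2 highest. Ifi35 had 37.1 and 76.8 CPM in the non-responder against 60.2 and 85.0 CPM in the responder libraries. Rtp4, which can restrain the response, had 51.5 and 93.0 CPM in the non-responder against 70.0 and 96.6 CPM in the responder libraries, and 13.9% of its exonic bases are shared on the same strand with Gm45338. Xaf1, which encodes a binding partner of the apoptosis inhibitor XIAP, had 97.2 and 156.2 CPM in the non-responder against 134.6 and 199.5 CPM in the responder libraries. That order was found for 10 members in all, and 11 others differed from it only in that non-responder replicate 2 was highest. Ifi44 had 87.9 and 163.5 CPM in the non-responder against 131.9 and 107.1 CPM in the responder libraries, with both responder values between the non-responder ones. Of the 9 other effectors, 4 were higher and 5 lower, with log2 fold changes up to 0.47 (Bst2, SE 0.66), 0.40 (Xaf1, SE 0.29) and 0.35 (Ifi35, SE 0.38), and none passed. That of Xaf1 was 0.090 without responder replicate 2, and 0.10 or 0.78 when replicate 1 or replicate 2 of the non-responder group was left out.

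Members differed widely in how far the libraries spread. The highest library was at least 2-fold above the lowest for 17 of 32 members (background 6.03% of genes with a mean of at least 10 CPM), between 1.5-fold and 2-fold for 6, and under 1.5-fold for 9: Ifit2, Oasl1, Oasl2, Ifnar1, Ifnar2, Trim25, Eif2ak2, Rsad2 and Isg20. The median was 2.05-fold over the members and 1.46-fold over all genes tested. By family, the median spread was 3.25-fold for OAS, 2.81-fold for Mx and 1.68-fold for IFIT.

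The direction of most members depended on which non-responder library was left out. Without non-responder replicate 2, 25 of 32 members were higher in responders, the median log2 fold change was 0.63, and Oas2, Oas3, Stat2, Irf9, Zbp1, Bst2, Ifi35 and Ifi27l2a passed (8 members, background 3.62%). Without non-responder replicate 1, 26 of 32 were lower, the median was -0.26, and Ifi27l2a alone passed, as lower (background 0.284%). The call of Ifi27l2a thus had opposite signs, with log2 fold changes of 1.596 (adjusted p = 0.00932 with edgeR) and -1.49 (adjusted p = 0.0407 with edgeR). In all, 20 members were lower without replicate 1 and higher without replicate 2, 6 were lower in both, 5 were higher in both, and Isg20 went the other way. In these fits 1 library stands for the non-responder group and is assumed to vary like the responder libraries.

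**Figure D3:**
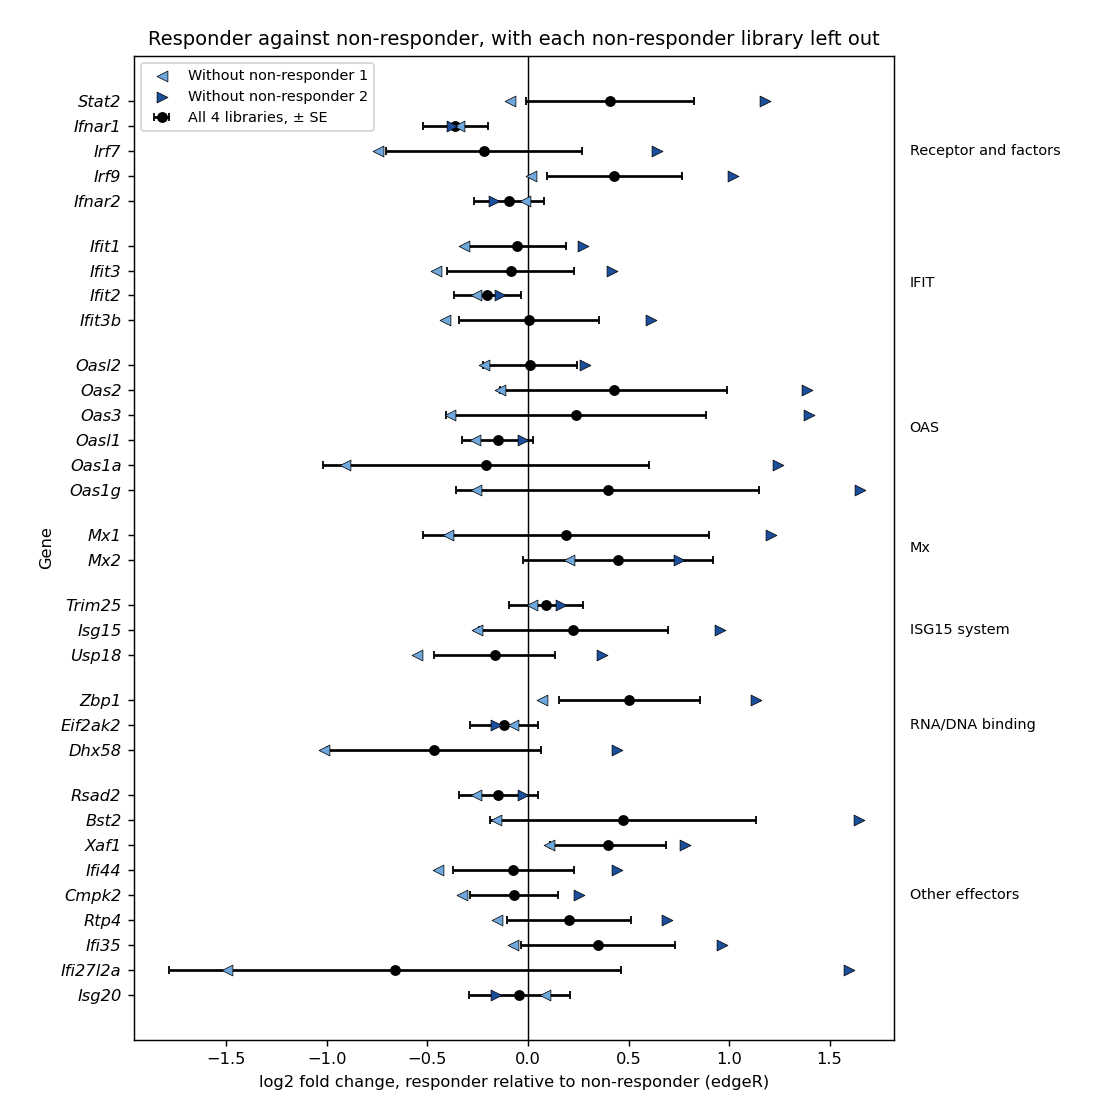
Log2 fold change of each gene, responder relative to non-responder, from edgeR: black points with bars show the fit on 4 libraries ± SE, and triangles show the fit without non-responder 1 (light, pointing left) or without non-responder 2 (dark, pointing right). The triangles lie on opposite sides of 0 for 21 of 32 genes and close together for Ifnar1, Ifnar2, Ifit2, Trim25 and Eif2ak2.

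Interferon genes themselves had few or no counted reads. Of 21 ligand genes (beta, alpha, epsilon, kappa, zeta, gamma and lambda), 14 had no counted read in any library, and 0 passed the filter. With a limit of 3 counts, no read allows at most 0.138 to 0.163 CPM of counted reads per library, for counting error only. Reads that fit several places were not counted, and sequence shared among the ligand genes was not examined. The limit therefore does not bound the true level of ligand genes that resemble each other. Ifnb1, which encodes interferon beta, had 2 and 4 reads in the non-responder against 3 and 5 in the responder libraries. Ifng had 0 and 3 against 1 and 2 reads. Reads copied by PCR are not independent molecules.

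Among negative regulators, Socs3, a JAK inhibitor gene, had 31.8 and 57.9 CPM in the non-responder against 57.3 and 71.0 CPM in the responder libraries (log2 fold change 0.52, SE 0.29). It had the smallest p of the 5 tested regulators, 0 of which passed, with 2 higher and 3 lower. Ptpn2, a phosphatase gene acting on JAK1 and the most abundant of the list per length, had 126.1 and 80.3 CPM in the non-responder against 104.5 and 87.95 CPM in the responder libraries.

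Another 34 interferon-stimulated genes were set beside the members. With edgeR 0 passed, 17 were higher and 17 lower, around a median log2 difference of 0.01. Non-responder replicate 1 was lowest for 24 of 34, and non-responder replicate 2 was highest for 30 of 34 (16 of 32 members, background 26.4%). Rnf213, a ubiquitin ligase gene with the highest CPM of the list, had 1137 and 1577 CPM in the non-responder against 1409 and 1276 CPM in the responder libraries. Epsti1 had 6.42 and 13.3 CPM in the non-responder against 6.39 and 6.54 CPM in the responder libraries, with only non-responder replicate 2 apart. Slfn5, with the smallest p of the list, had a log2 fold change of -0.50 (SE 0.30, adjusted p = 0.836).

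The GBP and IRG GTPases, 16 interferon-inducible genes that answer chiefly to interferon gamma, are the nearest group for comparison. All 16 were lowest in non-responder replicate 1, and 12 had non-responder replicate 2 at least 2-fold above it. Non-responder replicate 2 was above the responder mean for 8 of these 16 and for 26 of the 32 antiviral genes (background 50.2%), by a median of 1.00-fold and 1.20-fold. The median log2 fold change was 0.61 for the GTPases and -0.02 for the antiviral genes, and 0 GTPases passed, with 14 higher and 2 lower. Gbp7, with the smallest p of the list, had 231.4 and 430.5 CPM in the non-responder against 519.7 and 557.9 CPM in the responder libraries (log2 fold change 0.70, SE 0.30, adjusted p = 0.796). Its groups did not overlap. Groups that did not overlap, with responders higher, were found for 7 of the 16 GTPases and 0 of the 32 antiviral genes (background 18.8%). The difference between the lists was not tested.

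**Figure D4:**
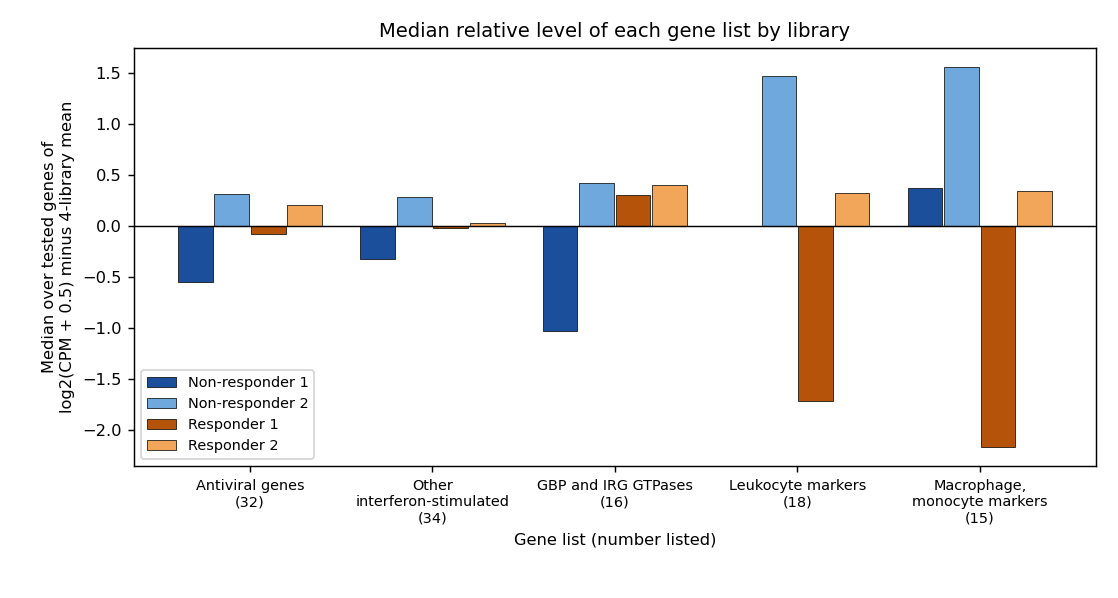
Median over the tested genes of each list of log2(CPM + 0.5) minus the mean of the 4 libraries, 1 bar per library; the number of genes listed is in brackets. Antiviral genes have medians of -0.55, 0.31, -0.08 and 0.21 in non-responder 1 and 2 and responder 1 and 2, while leukocyte markers are lowest in responder 1 (-1.71), and non-responder 1 is near 0 there.

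Markers of other cells shared part of this library order. All 18 leukocyte markers and all 14 tested macrophage and monocyte markers were highest in non-responder replicate 2, and the leukocyte sum there was 2.56-fold that of non-responder replicate 1. Responder replicate 2 exceeded responder replicate 1 for 18 leukocyte markers, 13 macrophage and monocyte markers and 22 of the 32 antiviral genes (background 51%). The order was not the same at the bottom. Responder replicate 1 had the lowest sum of leukocyte markers (26.5 against 78.2 CPM in non-responder replicate 1) and of macrophage and monocyte markers (21.7 against 138.6 CPM), yet 26 of 32 antiviral genes were higher there than in non-responder replicate 1 (background 49.9% of genes with a mean of at least 10 CPM). Ptprc, which encodes CD45, had 5.94 and 22.6 CPM in the non-responder against 0.644 and 6.91 CPM in the responder libraries. Plasmacytoid dendritic cells are known to express Bst2 and Irf7 at high levels, and of their 7 markers, Siglech, Ly6d and Klk1 had no read and Ccr9 was below the filter. The other 3, Tcf4, Spib and Il3ra, were tested. The list summed to 408.0 and 287.8 CPM in the non-responder against 274.1 and 237.2 CPM in the responder libraries, of which Tcf4, a factor made by many cell types, gave 400.9 and 271.9 against 263.9 and 225.9 CPM. Markers of T and NK cells summed to 0.45 to 3.23 CPM, and endothelial markers summed to 14.4 to 29.5 CPM. Neutrophil markers summed to 341.2 and 397.4 CPM in the non-responder against 183.3 and 289.2 CPM in the responder libraries. Of the neutrophil genes only Mmp9 was above the filter. Its log2 fold change was -0.64, with an unadjusted p under 0.05 with edgeR (background 6.21%). Its groups did not overlap (background 36.5%), and it did not pass the adjusted threshold. Fibroblast markers summed to 9991 and 16279 CPM in the non-responder against 8616 and 7426 CPM in the responder libraries. Of 11 tested, 10 were lower in responders (48.9% of all genes tested were higher). For 8 the groups did not overlap (background 36.5%), and 7 had an unadjusted p under 0.05 with edgeR (background 6.21%). Of these markers, 0 passed the adjusted threshold. Their median log2 fold change was -1.18. Whether the fibroblast marker RNA came from fibroblasts or from the tumor cells was not tested. Nor was the part of leukocyte or fibroblast RNA in the antiviral values.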

How the data were processed

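The 4 files hold raw counts per gene, deposited by the authors without normalization, 1 file per library. Reads were counted with featureCounts 1.6.1, reverse-stranded (setting 2), on Ensembl release 91, per the file headers, which show no option for multi-mapping reads. STAR and mm10 (GRCm38) are named in the submitters' processing notes, and the STAR version is not given in the sources used here. Symbols were matched for 53274 of 53379 identifiers. Gene lengths in the same deposited files were used for RPKM.

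Groups and replicate numbers came from the sample titles. Genes were kept by filterByExpr (minimum count 10), scaled by TMM (factors 0.952 to 1.035), and tested with the robust quasi-likelihood test of edgeR 4.0.16 in R 4.3.3 on all 4 libraries with group as the only term, with Benjamini-Hochberg adjustment over all 13792 genes. The SE was taken from the log2 fold change and its F statistic. With 2 against 2, an exact two-sided permutation test cannot go below p = 0.333, so none was used. No 2 libraries were near-identical (chi-square per degree of freedom 25.3 to 74.7). The fit was also run on simulated counts, drawn independently for each gene and library. That run does not cover a shift of many genes together in a library.

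The members and lists were chosen with earlier results of these data known. All members were named, other pathway genes by smallest p or highest level in their list, and Ifng and Ptprc as reference genes; Ifnb1, Oas1b, Epsti1 and single markers were picked with their values in view. Alternatives were RLE, upper-quartile and library-size scaling, DESeq2 1.42.0, voom of limma 3.58.1, other filters, the replicate block and each library left out. Some results are not reported here.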

Additional observations from a re-analysis of the deposited data

How the results depend on the processing

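Scaling by RLE, upper-quartile factors or library size alone left 0 genes and 0 members called and 16 members higher. The counts by library order, repeated under these scalings after seeing the data, stayed within 1.5 times. Groups did not overlap for 4 members under each of these scalings, against 5 with TMM, so narrow separations depended on the scaling. The count of genes called over all genes was 0 in the edgeR fit, 62 with DESeq2, 212 with no low-count filter, 856 at an unadjusted p under 0.05, and 41 to 516 with 1 library left out. With the replicate number as a replicate block it was 32, with 0 members called. Deviations of same-numbered libraries correlated at 0.37 across genes, but the labels give only a number, so no pairing was assumed. Leaving out 1 library gave 0 to 8 members called, 6 to 25 higher, and a median of -0.26 to 0.63. The sign of Oas1a turned under the replicate block (0.085) and limma-voom (0.10). Ifi27l2a kept its sign there but shrank from -0.66 to -0.079 and -0.015.

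The sign turned for 23 members in at least 1 fit with a library left out, and the cause was not tested. The ranges were -0.16 to 1.65 for Bst2, -0.33 to 0.25 for Cmpk2, -1.02 to 0.44 for Dhx58, -1.49 to 1.596 for Ifi27l2a, -0.076 to 0.96 for Ifi35 and -0.45 to 0.44 for Ifi44. They were -0.32 to 0.27 for Ifit1, -0.46 to 0.42 for Ifit3, -0.41 to 0.61 for Ifit3b, -0.75 to 0.64 for Irf7, -0.25 to 0.96 for Isg15 and -0.30 to 0.17 for Isg20. In the Mx and OAS genes they were -0.48 to 1.21 for Mx1, -0.33 to 0.95 for Mx2, -0.91 to 1.25 for Oas1a, -0.26 to 1.65 for Oas1g, -0.14 to 1.39 for Oas2, -0.39 to 1.40 for Oas3 and -0.22 to 0.29 for Oasl2. The others were -0.15 to 0.69 for Rtp4, -0.089 to 1.18 for Stat2, -0.017 to 0.19 for Trim25 and -0.55 to 0.37 for Usp18. The other 9 members kept their sign, with ranges of 0.016 to 1.0215 for Irf9, 0.090 to 0.78 for Xaf1, 0.071 to 1.13 for Zbp1, -0.26 to -0.024 for Rsad2, -0.26 to -0.025 for Oasl1, -0.17 to -0.017 for Ifnar2, -0.16 to -0.074 for Eif2ak2, -0.26 to -0.14 for Ifit2 and -0.38 to -0.34 for Ifnar1.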
